A study of Mus musculus with 14 samples.

Results

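The IL-6 family genes examined here are 4 cytokines (Il6, Il11, Lif and Clcf1), 4 receptor chains (Il6ra, Il6st, Osmr and Lifr), the transcription factor Stat3 and the feedback inhibitor Socs3. They were chosen by name, and all 10 were found among the 54532 genes listed for mouse livers and among the 16481 genes listed for mouse pancreatic stellate cells (PSCs). The liver groups were WT (n = 2), TRPV4-KO (n = 3) and WT treated with GSK219 (n = 3), and every mouse carried a pancreatic tumor, because 100000 KPCY cells had been injected into the tail of the pancreas 20 days earlier. KPCY cells are mouse pancreatic cancer cells that carry a yellow fluorescent tracer. According to the methods of the study, the mice called WT were Piezo1 fl/fl animals, the TRPV4-KO is a global Trpv4-/- while the injected cells keep a working Trpv4, and animals of both sexes were used at 8 to 12 weeks of age. GSK219 is GSK2193874, a TRPV4 antagonist, given daily by gavage at 10 mg/kg in 6% cavitron. Whether WT mice received the vehicle is not stated, so drug and gavage cannot be told apart. The PSCs came from 3 preparations, each cultured for 3 days on Matrigel with 5% FBS and treated with DMSO or with 25 μM Yoda1, a chemical agonist of the mechanosensitive channel PIEZO1. The treatment time is 24 hours in the methods and 72 hours in another passage of the study.

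Cytokines of this family signal through gp130, the receptor chain that Il6st encodes, paired with a chain that recognizes the ligand (Il6ra for IL-6, Lifr for LIF, Osmr for oncostatin M). Engaged receptors activate JAK kinases, which phosphorylate STAT3, and STAT3 then switches on genes that include Socs3, whose product binds gp130 and dampens the signal. In the liver the pathway drives hepatocytes to make acute-phase proteins, and in the pancreas stellate cells and fibroblasts are known as sources of several of the ligands.

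The libraries held 15567031 to 17395299 gene-assigned reads per liver and 27312894 to 39070539 per PSC culture. Trpv4, the targeted gene, had 43 and 53 reads in the WT livers, 15, 5 and 23 in the TRPV4-KO livers and 20, 30 and 36 with GSK219. Which part of the gene is missing in the TRPV4-KO mice is not given in the sources used here, so the remaining reads do not check the label. Of 8 stellate and fibroblast markers, Lrat and Gfap were not listed for the PSCs, and the other 6 (Des, Pdgfrb, Col1a1, Col1a2, Dcn and Vim) were. Ductal markers (Krt19, Krt7, Epcam and Sox9) were listed too, with summed normalized values of 15105 to 21841 in DMSO libraries, whereas the lymphocyte markers were not listed. TRPV4-KO replicate 3 and PSC preparation 3 differed most from the rest of their groups, and results that change without them are given both ways.

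Levels of different genes were compared per kb of gene length. In DMSO-treated PSCs the receptor chain Il6st was highest, at 1088 normalized reads per kb on average (range 908 to 1264), followed by Stat3 at 767 (760 to 774). Il6st stood above Stat3 in every library, whereas the ranges of Stat3, Lif (587), Il11 (553) and Clcf1 (458) overlapped from each gene to the next. Osmr (396 per kb), Il6 (375) and Socs3 (356) overlapped as well and lay below Clcf1. At the bottom were Lifr with 49.3 and Il6ra with 37.8 normalized reads per kb, and these 2 chains overlapped each other. The PSC cultures thus carried transcripts of all 4 ligands together with gp130 and Osmr, and few of the chains for IL-6 and LIF. Ductal markers were present too, so these bulk values do not show which cells of the cultures held each transcript.

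The order in livers was different. On the scale of CPM (counts scaled to library size) per kb, Il6st (39.0), Socs3 (34.6) and Stat3 (33.3) led in WT livers, with Socs3 (29.8 to 39.5) overlapping both Il6st (35.9 to 42.2) and Stat3 (33.2 to 33.4) and Il6st above Stat3. Next came Lifr (24.1) and Il6ra (9.93). Osmr (1.71) and Clcf1 (1.36) overlapped each other far below. The cytokines Il6 (0.227 CPM per kb), Il11 (0.0461) and Lif (0.0272) were close to the limit of detection. Socs3 took a lower place in the other groups, where it averaged 12.5 CPM per kb in TRPV4-KO and 13.4 with GSK219, below Stat3 and Lifr in every liver of both groups.

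**Figure D1:**
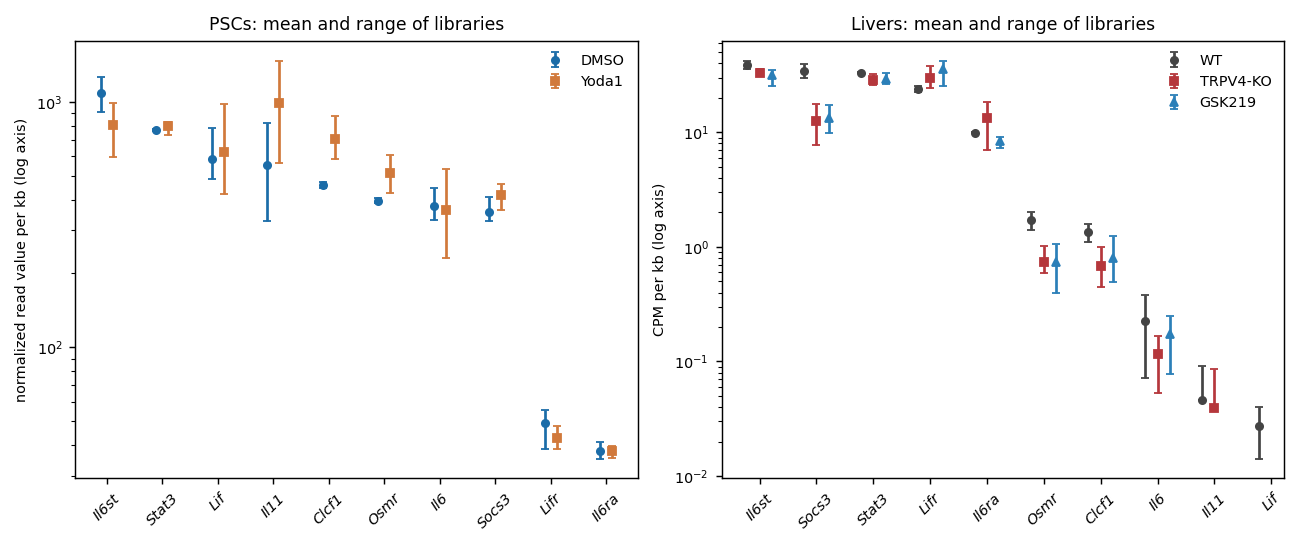
Mean level per kb of gene length of each gene, on log axes, in PSCs (left, normalized reads per kb, 3 libraries per treatment) and livers (right, CPM per kb, 2 WT, 3 TRPV4-KO and 3 GSK219). Bars span the lowest to the highest library, a range that reaches 0 is drawn only upward and a mean of 0 is not drawn. Il6st leads both panels by the control mean, and Il6ra is last in PSCs while Lif is last in WT livers.

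The PSC comparison asked how the transcripts respond when PIEZO1 is activated. With the preparation as a block, Il11, Clcf1 and Osmr rose with Yoda1 and Il6st fell, by limma at an adjusted p under 0.05. Of all 15145 genes tested, 8.68% rose and 9.55% fell by the same rule. None of the 10 genes also changed more than 2-fold, as 1.66% of all genes did upward and 1.32% downward. Without the block, limma called 0 of the 10, where 2.19% of all genes rose and 2.47% fell. In that fit 2 of the 10 had an unadjusted p under 0.05, against 22.7% of all genes. At an unadjusted p under 0.05 the fit with the block gave 5 of the 10, against 35.1% of all genes. The whole reads behind the deposited values could be recovered, and edgeR and DESeq2 on those reads, both with the block, called 5 and 4 of the 10. At an unadjusted p under 0.05 these tools gave 5 and 5 of the 10, against 34.6% and 21.8% of all genes.

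Il11 encodes interleukin-11, a gp130 ligand linked to fibroblast activation. It lies at chr7:4772373-4782857 on the minus strand of GRCm38. Normalized Il11 values were 657 with DMSO and 1136 with Yoda1 in preparation 1, 1031 and 1862 in preparation 2, and 1650 and 2963 in preparation 3. The ratio of Yoda1 to DMSO was therefore nearly the same in every preparation, 1.73, 1.81 and 1.80, although the DMSO levels of the preparations spanned 2.51-fold and the treatments overlapped. The fold change was 1.78 (95% confidence interval 1.63 to 1.93, n = 3 pairs), or 0.83 ± 0.05 (SE) on the log2 scale, with an adjusted p of 0.0011. Leaving out any preparation kept the call (adjusted p up to 0.025), and without the block the same fold change had an SE of 0.43 and an adjusted p of 0.31.

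Il11 has 2 starts in RefSeq, and the 250 bases before each are shown with those of Il6, because Il11 rose and Il6 was not called in the same cells. Letters were searched for TGANTCA, which AP-1 factors recognize, and for TTCNNNGAA, which STAT factors recognize, and both read the same on either strand. Capitals mark a match, and the sequences run 5′ to 3′ on the strand of the gene in RefSeq (GRCm38.p6), chr7:4782858-4783107 and chr7:4778142-4778391 for Il11 (minus strand) and chr5:30012864-30013113 for Il6 (plus strand).
Il11 start 1: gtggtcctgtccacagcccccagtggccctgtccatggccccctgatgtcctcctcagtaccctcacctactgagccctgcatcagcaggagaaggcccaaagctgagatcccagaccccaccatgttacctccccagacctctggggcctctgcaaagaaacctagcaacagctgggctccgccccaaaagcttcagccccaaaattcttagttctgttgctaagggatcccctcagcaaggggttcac
Il11 start 2: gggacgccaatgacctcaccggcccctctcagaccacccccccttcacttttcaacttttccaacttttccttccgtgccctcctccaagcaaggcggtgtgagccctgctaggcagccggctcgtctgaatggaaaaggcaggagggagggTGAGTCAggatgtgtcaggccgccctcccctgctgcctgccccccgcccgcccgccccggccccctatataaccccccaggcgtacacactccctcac
Il6: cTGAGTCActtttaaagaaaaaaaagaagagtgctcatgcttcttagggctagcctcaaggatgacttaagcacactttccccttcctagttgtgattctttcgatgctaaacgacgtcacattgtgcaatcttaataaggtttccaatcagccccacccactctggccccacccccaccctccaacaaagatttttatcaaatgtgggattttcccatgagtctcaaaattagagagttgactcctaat

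The second Il11 start, which lies inside the annotated gene, had TGAGTCA at bases -98 to -92 before the start. Il6 had the same letters at -249 to -243, and Lif had TGACTCA at -228 to -222. TGANTCA was found in 6.75% and TTCNNNGAA in 7.02% of the 32851 windows of 250 bases in RefSeq. The windows of Il6st, Il6ra, Stat3, Osmr and both starts of Lifr held neither, and that of Osmr lies wholly within an annotated exon. Clcf1 was not in the table.

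Clcf1 encodes cardiotrophin-like cytokine factor 1, a ligand of the CNTF receptor complex. Its DMSO values were close together, 1757, 1679 and 1661 in preparations 1 to 3, and the Yoda1 values were 2165, 2493 and 3242. Every Yoda1 library was above every DMSO library, and the ratio differed between preparations (1.23, 1.48 and 1.95). The log2 fold change was 0.61 ± 0.13 (SE), a fold change of 1.53 (1.22 to 1.92), with an adjusted p of 0.034. The adjusted p was 0.065 without the block and 0.15 without preparation 2.

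Il6 encodes interleukin-6 itself. Its normalized values were 843 with DMSO and 562 with Yoda1 in preparation 1, 804 and 786 in preparation 2, and 1082 and 1300 in preparation 3. The preparations differed in direction, with ratios of 0.67, 0.98 and 1.20, and the log2 fold change was -0.12 ± 0.16 (adjusted p = 0.66). The interval of the fold change, 0.688 to 1.23, leaves room for a fall or a rise of that size. Without preparation 1 the value turned to 0.12 on the log2 scale, again not called.

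Lif, which encodes leukemia inhibitory factor, also differed in direction between preparations. Lif values were 2115 and 1840 in preparation 1, 2157 and 2067 in preparation 2, and 3393 and 4249 in preparation 3, DMSO first. The ratios were 0.87, 0.96 and 1.25, with a log2 fold change of 0.02 (95% confidence interval -0.24 to 0.28) and an adjusted p of 0.91, and the value was -0.13 without preparation 3. Preparation 3 was the highest of the 3 preparations for Il6, Il11 and Lif in both treatments, and their DMSO levels differed between preparations by 1.35-, 2.51- and 1.60-fold, compared with 1.06-fold for Clcf1.

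**Figure D2:**
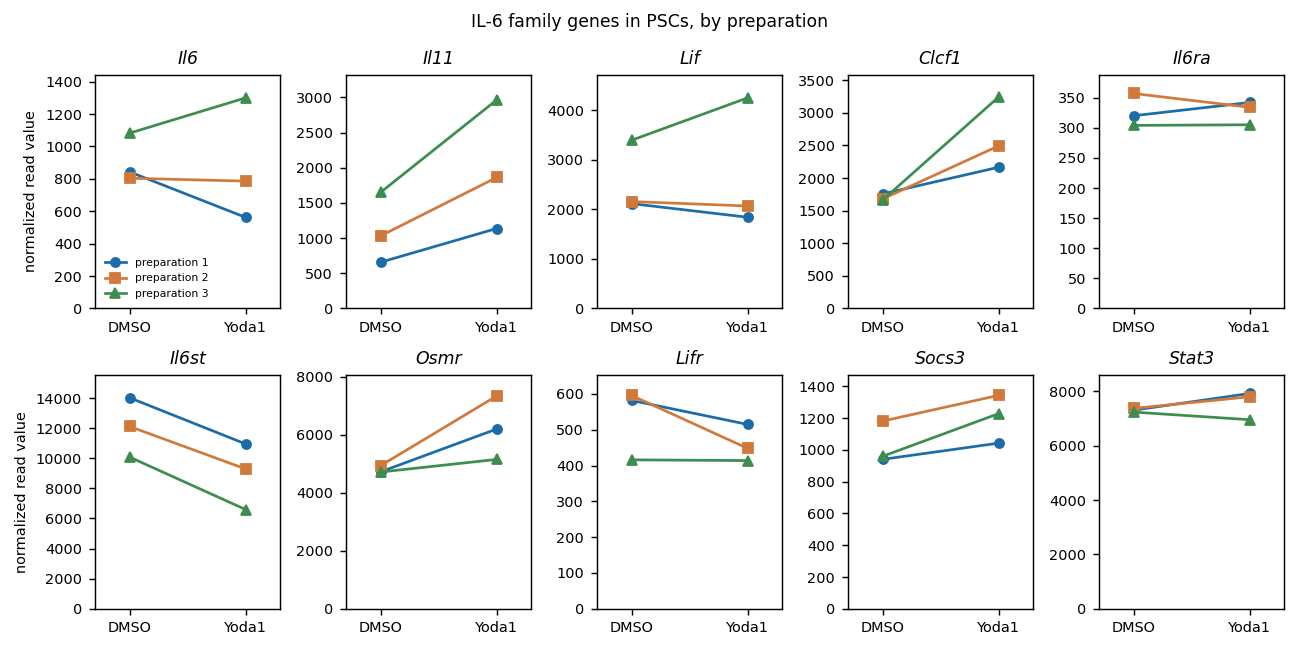
Normalized read value of each gene in the 6 PSC libraries, with a line joining the DMSO and Yoda1 libraries of one preparation and axes from 0. The lines of Il11, Clcf1 and Osmr all run upward and those of Il6st downward, while those of Il6 and Lif cross in direction between preparations.

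Il6st, the shared chain gp130, was the only receptor gene of the 4 called as lower with Yoda1. Il6st values with DMSO were 14024, 12116 and 10081 in preparations 1 to 3, and with Yoda1 they were 10953, 9291 and 6594. The value was lower with Yoda1 in each preparation, with ratios of 0.78, 0.77 and 0.65, while the treatments overlapped across preparations. The log2 fold change was -0.45 ± 0.06 (SE), a fold change of 0.732 (0.657 to 0.815), with an adjusted p of 0.0084. The call was lost without the block (adjusted p = 0.25) and without preparation 2 (0.079).

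Osmr, the chain for oncostatin M, moved the other way. Osmr values were 4723, 4936 and 4717 with DMSO and 6200, 7341 and 5152 with Yoda1, so all Yoda1 libraries were above all DMSO libraries. The ratios were 1.31, 1.49 and 1.09, and the log2 fold change was 0.36 ± 0.09 (adjusted p = 0.040). This call had the largest adjusted p of the 4 and was lost most often, with 0.15 without the block, 0.12 without preparation 1 and 0.23 without preparation 2.

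Lifr, the LIF receptor chain, had values of 582, 596 and 416 with DMSO and 515, 448 and 414 with Yoda1. The value was lower with Yoda1 in each preparation, though barely in preparation 3, and the log2 fold change of -0.20 ± 0.10 had an adjusted p of 0.20, or of 0.016 without preparation 3. Il6ra, the IL-6 receptor chain, stayed between 304 and 357 in all 6 libraries, with a fold change of 1.00 (0.867 to 1.16) and an adjusted p of 0.99.

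Socs3 lies at chr11:117966079-117970047 on the minus strand. Socs3 values were 941 and 1043 in preparation 1, 1182 and 1344 in preparation 2, and 960 and 1229 in preparation 3, DMSO first, higher with Yoda1 in all 3. The log2 fold change was 0.23 ± 0.06 with an adjusted p of 0.054, which edgeR on the recovered reads put just under the threshold, while the adjusted p was 0.17 by DESeq2, 0.33 without the block and 0.038 without preparation 3. Higher in all 3 preparations were 4 of the 10 genes, against 27.2% of all genes tested, and lower in all 3 were 2 of the 10, against 29.4%. Stat3 values ran from 6961 to 7927, with a fold change of 1.03 (0.944 to 1.13) and an adjusted p of 0.58.

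**Figure D3:**
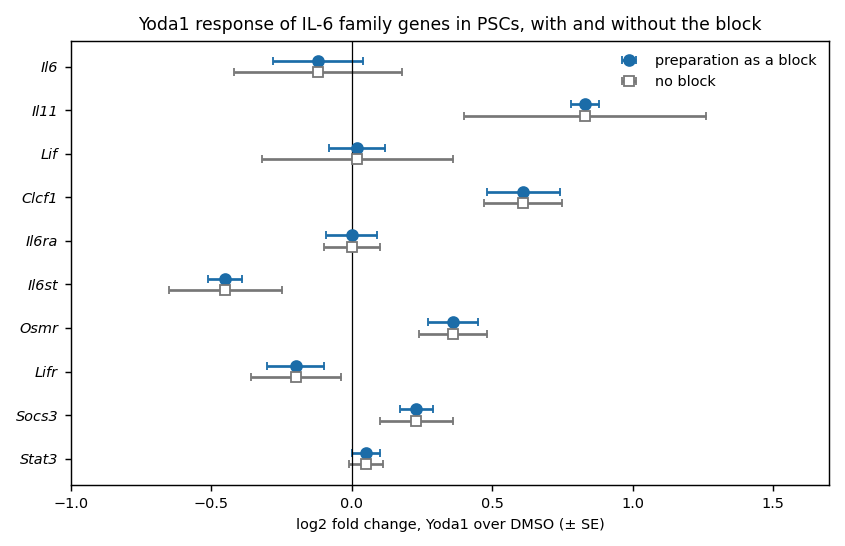
Log2 fold change of each gene in PSCs, Yoda1 over DMSO, with bars of 1 SE, from the fit with the preparation as a block (filled circles) and the fit without it (open squares), 3 libraries per treatment. The fold changes coincide and the bars do not: that of Il11 is 0.05 with the block and 0.43 without it.

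Stellate and fibroblast markers moved in the same libraries. Of the 6 listed, all but Des fell with Yoda1, and their summed value was 680197 to 776584 with DMSO and 376388 to 462685 with Yoda1. The 3 listed endothelial markers did not move together: their sum was 1685 to 2065 with DMSO and 1037 to 1253 with Yoda1, which reflects Kdr (-1.07 on the log2 scale, adjusted p = 0.0017), whereas Cdh5 was at 1.05 (0.086, called by DESeq2 at 0.0087) and Pecam1 at 0.53 (0.27). The summed ductal markers were 11632 to 24761 with Yoda1, and of the 4 genes Epcam fell, by 0.30 (adjusted p = 0.023, 0.62 without the block). The macrophage markers summed to 674 to 789 with DMSO and 616 to 1187 with Yoda1, with 0 of 4 called by limma, and Cd68 was higher in all 3 preparations, at 0.75 (0.080, called by DESeq2 at 0.0085). The acinar markers summed to 309 to 1566 and 309 to 2708, with 0 of 4 called by limma and Prss2 at 0.51 (0.078, called by DESeq2 at 0.045). Kdr, Cdh5, Epcam, Cd68 and Prss2 were named after their values were seen. Their part in the changes of Il11, Clcf1, Osmr and Il6st was not tested.

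Other genes of the pathway were counted by the rule under which 8.68% of all genes rose and 9.55% fell. Of 3 further ligand genes tested, 0 passed limma at an adjusted p under 0.05 or an unadjusted p under 0.05, and 0 passed edgeR or DESeq2, with a log2 fold change of 0.76 for Osm, the oncostatin M gene (adjusted p = 0.15). Of 3 receptor genes, Cntfr, the CNTF receptor chain, fell by 0.48 on the log2 scale (adjusted p = 0.023, 0.38 without the block, 0.054 by DESeq2 and 0.18 without preparation 2). Il27ra, the IL-27 receptor chain, was at 0.43 (0.24). The median of the receptor list was -0.05, against -0.01 over all genes.

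Among 8 signal transducers, 1 rose and 2 fell. The kinase gene Tyk2 rose by 0.29 on the log2 scale (adjusted p = 0.046, 0.22 without the block and 0.092 by DESeq2). Gab1, an adaptor of gp130 and growth factor receptors, fell by 0.44 (adjusted p = 0.0066, 0.020 without the block and 0.085 without preparation 2), and Ptpn11, the gene of the phosphatase SHP2, fell by 0.28 (0.019, or 0.053 without the block and 0.15 without preparation 2). Of 13 brakes and modulators, Ptpn2, a phosphatase that acts on JAKs and STATs, fell by 0.23 (adjusted p = 0.048, 0.14 without the block, 0.054 by edgeR, 0.17 by DESeq2, 0.077 and 0.28 without preparations 1 and 2), and Adam10, a sheddase, was at -0.15 (0.10). The medians were 0.05 for transducers and -0.08 for brakes.

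Of 14 genes known as STAT3 targets in many cells, 4 rose and 2 fell, with a median of 0.13. Cebpb, which encodes a transcription factor of inflammation, rose by 0.69 ± 0.06 (adjusted p = 0.0020). It kept its call without the block (0.021) and without any preparation. Bcl6, a repressor gene, rose by 0.50 (0.0055, or 0.063 without the block and 0.075 without preparation 2), and Bcl2l1, a survival gene, by 0.51 (0.0055, or 0.013 without the block). Vegfa rose by 0.39 (0.026), whereas Junb fell by 0.28 (0.023) and Mcl1 by 0.22 (0.029), and none of these 3 was called without the block. Without preparation 2 the adjusted p was 0.071 for Bcl2l1, 0.18 for Vegfa, 0.22 for Junb, 0.28 for Mcl1 and 0.21 for Tyk2, and without preparation 1 it was 0.065 for Vegfa and 0.11 for Mcl1. DESeq2 gave 0.063 for Mcl1. Bcl2l1, Vegfa, Junb, Mcl1 and Tyk2 were named after their values were seen.

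In livers the question was which transcripts differ when TRPV4 is missing or blocked. WT livers served both comparisons, so the WT to TRPV4-KO and WT to GSK219 values are not independent of each other. Socs3 and Osmr had the largest differences of the 7 genes that passed the filter on low counts, and Clcf1 came next. No member was called by edgeR at an adjusted p under 0.05. By that rule 0.165% of 15118 genes were higher and 0.126% lower in WT than in TRPV4-KO, 0.0% differed in either direction between WT and GSK219, and 0.0595% were higher and 0.0463% lower in TRPV4-KO than with GSK219. At an unadjusted p under 0.05, edgeR gave 2 of the 7 (Socs3 and Osmr) in each WT comparison, where 17.1% and 8.22% of all genes passed, and 0 of 7 between TRPV4-KO and GSK219, where 6.12% did. DESeq2 called 1, Socs3, in each WT comparison, where it called 3.19% and 0.556% of all genes as higher in WT. Between TRPV4-KO and GSK219 it called 0, where it called 0.47% of all genes as higher in TRPV4-KO. There 1 member had an unadjusted p under 0.05, as did 6.09% of all genes. In bulk liver, fewer cells of a type and less RNA per cell cannot be told apart.

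Socs3 read counts were 1844 and 1478 in WT, 551, 348 and 887 in TRPV4-KO and 453, 837 and 625 with GSK219. On the CPM scale the WT livers held 114 and 86.1, the TRPV4-KO livers 34.8, 22.5 and 51.4, and the GSK219 livers 28.5, 50.6 and 37.4. Both WT livers were therefore above all 6 others, a pattern shared by 3 of the 7 tested genes (Socs3, Osmr and, by a narrow margin of 398 to 397 CPM, Il6st) and by 10.0% of all genes tested. WT exceeded TRPV4-KO by 1.46 ± 0.35 (SE) on the log2 scale, or 2.76-fold (adjusted p = 0.12), and GSK219 by 1.37 ± 0.35, or 2.58-fold (adjusted p = 0.45). TRPV4-KO and GSK219 differed by -0.10 ± 0.32. DESeq2 gave nearly the same fold changes with adjusted p of 0.0023 and 0.021. Without TRPV4-KO replicate 3, edgeR called Socs3 as higher in WT than in TRPV4-KO, at 1.81 and an adjusted p of 0.031, in a fit that also called 573 genes higher in WT by more than 2-fold. With a sex term the adjusted p was 0.054, and TRPV4-KO replicate 3 was the liver of its group with Xist reads.

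The 250 bases before the RefSeq start of Socs3, at chr11:117969367-117969616 on the minus strand of GRCm38.p6, are shown because Socs3 is a textbook STAT3 target. Capitals mark a match to TTCNNNGAA.
Socs3: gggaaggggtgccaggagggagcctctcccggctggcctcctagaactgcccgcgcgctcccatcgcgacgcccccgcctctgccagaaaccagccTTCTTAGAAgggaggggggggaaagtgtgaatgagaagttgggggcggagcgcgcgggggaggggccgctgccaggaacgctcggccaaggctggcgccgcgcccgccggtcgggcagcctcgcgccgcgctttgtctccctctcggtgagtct

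TTCTTAGAA stood at bases -154 to -146, in a window of which 77 bases belong to an annotated exon of Socs3 in GENCODE M21. Socs3 was the member whose window held these letters, out of 9 members with a sequence.

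Osmr read counts were 393 and 293 in WT, 117, 111 and 213 in TRPV4-KO and 76, 210 and 157 with GSK219. Osmr reached 24.3 and 17.1 CPM in WT and at most 12.3 and 12.7 CPM in the other groups, so WT stood apart, while TRPV4-KO and GSK219 overlapped. The log2 difference was 1.20 ± 0.40 over TRPV4-KO (adjusted p = 0.20) and 1.21 ± 0.40 over GSK219 (0.54), while TRPV4-KO and GSK219 differed by 0.00 ± 0.36. The alternatives for Osmr over TRPV4-KO ran from 0.94 to 1.51 with adjusted p of 0.056 to 0.75.

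Clcf1 read counts were 96 and 71 in WT, 26, 34 and 64 in TRPV4-KO and 39, 76 and 31 with GSK219. Both WT livers (5.94 and 4.14 CPM) were above the TRPV4-KO livers (up to 3.71 CPM), but GSK219 replicate 2, at 4.59 CPM, was above WT replicate 2. The log2 differences were 0.99 ± 0.46 (adjusted p = 0.32) and 0.76 ± 0.46 (0.74).

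**Figure D4:**
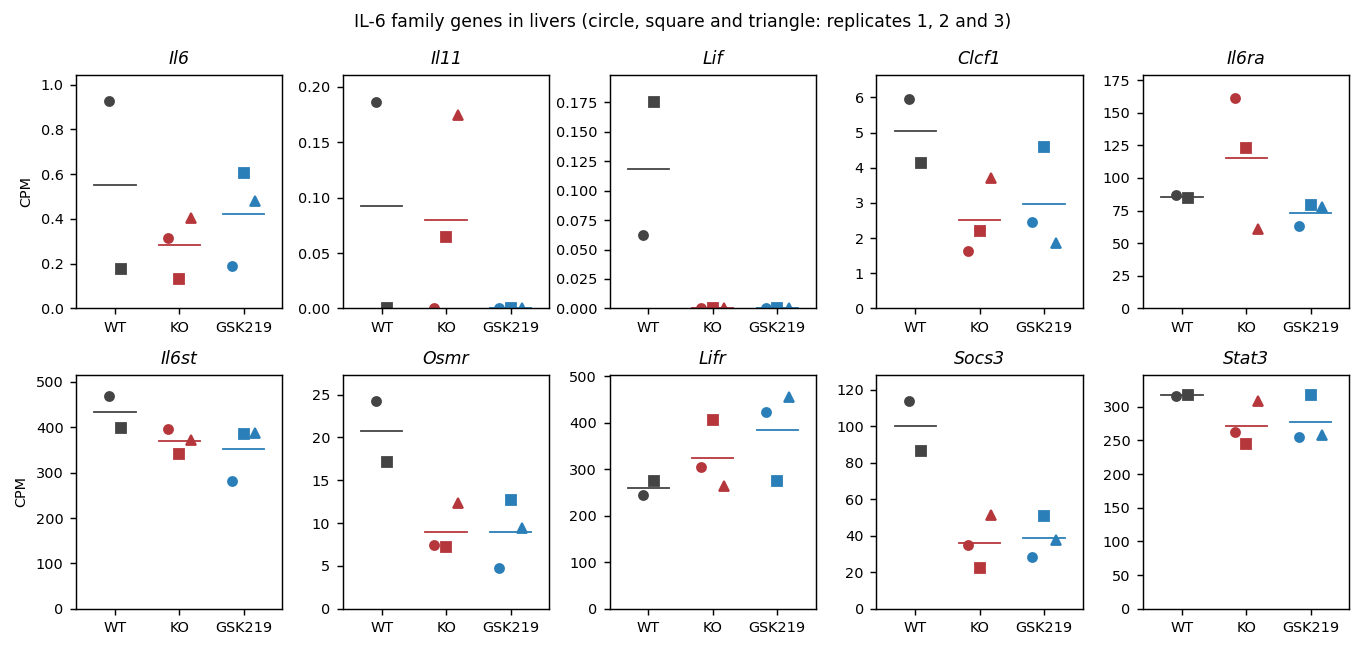
CPM of each gene in the 8 livers (WT, n = 2, TRPV4-KO, n = 3, and GSK219, n = 3), with horizontal lines at the group means and axes from 0. The WT points of Socs3 and Osmr lie above all others, and the values of Il6, Il11 and Lif stay under 1 CPM.

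The other 3 cytokines were too rare for a test. Il6 had 15 and 3 reads in WT, 5, 2 and 7 in TRPV4-KO and 3, 10 and 8 with GSK219, so the groups overlapped, between 0.130 and 0.928 CPM in all. Il11 had 3 and 0 reads in WT, 0, 1 and 3 in TRPV4-KO and 0 in every GSK219 liver. Lif had 1 and 3 reads in WT and 0 in the other 6 livers, where a count of 0 allows up to 0.174 to 0.194 CPM. A difference in Lif was not detectable at this depth, since the WT livers held 0.0619 and 0.175 CPM.

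Il6st, Stat3, Il6ra and Lifr, the abundant members in liver, differed less. Il6st was at 468 and 398 CPM in WT, at 397, 341 and 371 in TRPV4-KO and at 282, 386 and 387 with GSK219, with WT higher by 0.23 ± 0.17 and 0.30 ± 0.17 on the log2 scale (adjusted p = 0.53 and 0.71). Stat3 was at 316 and 318 CPM in WT and at 244 to 317 in the others, with log2 differences of 0.22 ± 0.15 and 0.20 ± 0.15. The WT livers were above the TRPV4-KO livers for 5 of the 7 tested genes, against 17.7% of all genes tested, and above the GSK219 livers for 4 of 7, against 15.6%. Below them were 0 of 7 in both, against 15.5% and 11.7%. TRPV4-KO and GSK219 livers overlapped for all 7, whereas 5.85% of all genes were higher and 4.35% lower in every TRPV4-KO liver.

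Il6ra varied within the TRPV4-KO group. In TRPV4-KO livers it was at 161, 123 and 60.7 CPM, above the WT livers (86.8 and 84.8) in replicates 1 and 2 and below them in replicate 3. GSK219 livers, at 62.9, 79.2 and 77.6 CPM, were all below WT. The log2 differences were -0.42 ± 0.34 for WT over TRPV4-KO (adjusted p = 0.59), 0.23 ± 0.34 for WT over GSK219 and 0.65 ± 0.31 for TRPV4-KO over GSK219 (0.86). Without TRPV4-KO replicate 3, edgeR called Il6ra as lower in WT than in TRPV4-KO (-0.72, adjusted p = 0.041) and higher in TRPV4-KO than with GSK219 (0.95, adjusted p = 0.035). Lifr was at 245 and 275 CPM in WT, 305, 405 and 264 in TRPV4-KO and 422, 275 and 455 with GSK219, with log2 differences of -0.32 ± 0.25 and -0.56 ± 0.25 (adjusted p = 0.56 and 0.61), and the groups overlapped.

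**Figure D5:**
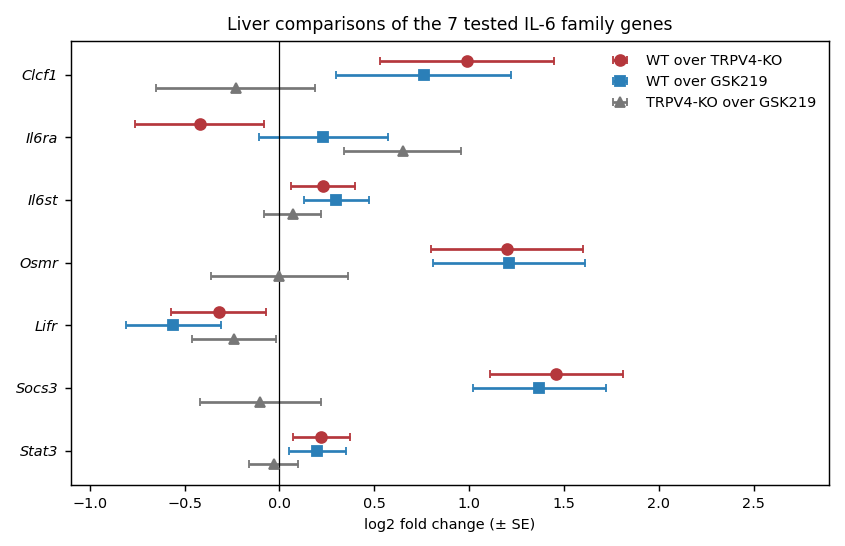
Log2 fold change of the 7 tested genes in livers, with bars of 1 SE, for WT over TRPV4-KO (circles), WT over GSK219 (squares) and TRPV4-KO over GSK219 (triangles), from 2 WT, 3 TRPV4-KO and 3 GSK219 livers. Socs3 and Osmr lie above 1 in both WT comparisons and near 0 between TRPV4-KO and GSK219.

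Summed neutrophil, macrophage, stellate and endothelial markers were higher in the same WT livers as Socs3 and Osmr, while summed lymphocyte markers overlapped between the groups. The summed neutrophil markers were 42.2 to 50.1 CPM in WT, 1.52 to 6.14 in TRPV4-KO and 2.27 to 5.20 with GSK219, and for each of the 6 tested genes (of 7) the WT livers were above both other groups, with 2 called by edgeR against TRPV4-KO and 0 against GSK219 (5 by DESeq2 in each). The summed macrophage and Kupffer cell markers were 901 to 969 CPM in WT, 252 to 531 in TRPV4-KO and 254 to 605 with GSK219, with WT above for 6 of 6 genes. Of these 6, edgeR called 0 in either WT comparison, and DESeq2 called 5 against TRPV4-KO and 0 against GSK219. Stellate and fibroblast markers summed to 320 to 415, 127 to 283 and 163 to 273 CPM, with WT above for 4 and 7 of 8 genes, and endothelial markers to 353 to 388, 207 to 331 and 255 to 347 CPM, with WT above for 3 and 1 of 4. Both WT livers were above every TRPV4-KO liver for 17.7% of all genes tested, and above every GSK219 liver for 15.6%. Of the stellate and fibroblast markers, both tools called 0 in either WT comparison. Of the endothelial markers edgeR called 0, and DESeq2 called 1 against TRPV4-KO and 0 against GSK219. Ductal and tumor epithelial markers summed to 16.5 to 22, 8.39 to 10.1 and 9.80 to 13.2 CPM, a sum carried by Sox9 (mean 15.4 CPM in WT and 5.12 in TRPV4-KO), while Krt19 (-0.44) and Krt7 (-0.08) had the other sign against TRPV4-KO and the list's median was 0.13. Hepatocyte markers summed to 46620 to 60266 in WT, 70899 to 90786 in TRPV4-KO and 69832 to 79461 with GSK219, mostly Alb (mean 38006 CPM in WT and 66647 in TRPV4-KO). The other 4 hepatocyte markers overlapped between WT and TRPV4-KO, Apoa1 had the other sign (0.24), and the median log2 fold change was -0.15. No marker of these lists was at 0 in a group. Their part in the differences of the members was not tested.

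Of the hepatic acute-phase genes, the classical output of IL-6 signaling in hepatocytes, 23 of 25 were tested in livers. WT was higher than TRPV4-KO for 22 of them by sign, with a median log2 fold change of 0.89 against -0.01 over all genes. The exception was Hamp, at -0.56 (edgeR, adjusted p = 0.44), with 316 and 324 CPM in WT and 442 to 507 in TRPV4-KO. Crp, at 0.01, and Itih4, at 0.16, differed little. Hamp, Crp and Itih4 were named after their values were seen. Of the list, 2 passed edgeR as higher in WT, where 0.165% of all genes did. Hpx, which encodes hemopexin, was at 16603 and 13407 CPM in WT and at 7195, 6262 and 6983 in TRPV4-KO, 1.14 ± 0.16 on the log2 scale (adjusted p = 0.036). Saa2, which encodes serum amyloid A2, was at 5277 and 3962 CPM in WT and at 203, 184 and 290 in TRPV4-KO, 4.36 ± 0.56 (adjusted p = 0.038). Saa1 differed by 3.25 (adjusted p = 0.061, or 0.032 with a sex term, 0.013 with only these groups in the fit and 0.046 without TRPV4-KO replicate 3), and Saa1 and Saa2 are near-identical genes whose reads the counting could have split.

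Both calls rest on few libraries. The adjusted p of Hpx was 0.28 and 0.073 without WT replicate 1 and 2 and 0.16 and 0.18 without TRPV4-KO replicate 1 and 2, and that of Saa2 was 0.28, 0.13, 0.18 and 0.19. Against GSK219 the same list was positive for 22 of 23 genes with a median of 0.68, and Hamp was again at -0.56. By edgeR 0 were called, with an adjusted p of 0.22 for Hpx, 0.17 for Saa2 and 0.22 for Saa1. An unadjusted p under 0.05 was reached by 12, where 8.22% of all genes passed. Without GSK219 replicate 2, edgeR called Saa1 and Saa2 there, both at 0.012. DESeq2 called 12 of the list in WT over TRPV4-KO and 7 in WT over GSK219, where it called 3.19% and 0.556% of all genes as higher in WT. Between TRPV4-KO and GSK219 the median was -0.02 and both tools called 0. At an unadjusted p under 0.05 were 1 (edgeR) and 2 (DESeq2), against 6.12% and 6.09% of all genes.

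Of the remaining lists, edgeR called 0 genes between WT and TRPV4-KO. At an unadjusted p under 0.05 it gave 5 STAT3 targets, 5 brakes and modulators, 1 transducer, 0 receptors and 0 ligands, where 17.1% of all genes passed. For WT over TRPV4-KO the median log2 fold change was 0.29 over 14 STAT3 targets, 0.32 over 13 brakes and modulators, 0.07 over 8 transducers, -0.22 over 3 receptors and 0.24 over 2 ligands. DESeq2 called 4 STAT3 targets and 3 brakes as higher in WT, where it called 3.19% of all genes, and 1 STAT3 target and 1 transducer as lower. For WT over GSK219 edgeR called 0 of these lists. At an unadjusted p under 0.05 it gave 4 STAT3 targets and 4 brakes, where 8.22% of all genes passed. DESeq2 called 2 brakes as higher in WT, where it called 0.556% of all genes, and 0 of the other lists. The medians there were 0.41 for STAT3 targets, 0.29 for brakes, 0.16 for transducers, 0.09 for receptors and 0.24 for ligands. Over TRPV4-KO, Icam1, an adhesion molecule, had 0.76 (adjusted p = 0.10), Il4ra 0.78 (0.11), Zc3h12a, whose product degrades Il6 mRNA, 0.81 (0.12), Adam10 0.57 (0.12), Gab1 -0.50 (0.14) and Shc1 0.23 (0.37). DESeq2 called all of these but Shc1. With a sex term the adjusted p was 0.031 for Icam1 and 0.036 for Il4ra, without the low-count filter 0.045 for Il4ra, and without TRPV4-KO replicate 3 it was 0.027 for Icam1, 0.035 for Il4ra and 0.047 for Adam10. Of the receptors and ligands, Il11ra1 had -0.25, Il27ra -0.22, Ebi3 0.50 and Ctf1 -0.02, with adjusted p of 0.71 or more.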

How the data were processed

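RNA-Seq libraries of 8 mouse livers and 6 mouse PSC cultures were analyzed as deposited. For livers the authors deposited counts of reads per gene, with gene lengths (used per kb, another unit) and coordinates that match GRCm38. For PSCs the deposited signal per gene consists of gene counts scaled by a size factor: all 98886 values (100%, tolerance 0.05 reads) were multiples of a constant of their library, which gave the recovered reads. The submitters' processing notes name HISAT2 2.0.5 and Trim Galore. The counting tool is not given in the sources used here. The liver table has 7 more count columns that name no described sample, and these were left out. Columns of the authors' own PSC comparison (fold changes, standard errors, test statistics and p-values) were not used.

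Liver counts were tested in R 4.3.3 with edgeR 4.0.16 (TMM, low-count filter with a minimum count of 10, robust quasi-likelihood fit of all 8 livers). PSC values were tested with limma 3.58.1 (trend and robust) on log2(value + 1), for genes reaching 10 in 3 or more libraries, with the preparation as a block, so fold changes of low genes are understated. P-values were adjusted by Benjamini-Hochberg over all genes tested. Genes are counted at an adjusted p under 0.05, with a log2 fold change over 1 where 2-fold is stated. CPM are counts scaled by TMM library sizes. The preparation comes from the library names, and libraries of one preparation deviated together (correlations across genes of 0.43, 0.26 and 0.53). Same-numbered TRPV4-KO and GSK219 livers also did (0.30, 0.16 and 0.59), so the fit with the replicate number as a block was compared for that pair. The labels call all samples biological replicates. The study counts WT and TRPV4-KO livers as animals. For GSK219 livers and for how the PSC preparations were obtained this is not stated, and p-values there measure only the spread between these samples. Alternatives were DESeq2 1.42.0, other size factors and pseudocounts (0.1 and 10), no filter, the block added or dropped, a term for sex (from Xist reads), only the groups compared, edgeR and DESeq2 on the recovered PSC reads, and each library or preparation left out. The steps were tested on simulated data.

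Members and gene lists were chosen with earlier results of these data known. Named were all members, Saa1 and Saa2, the list genes past the threshold (or the 2 with the smallest p in WT over TRPV4-KO and in Yoda1 over DMSO), and the 5 genes most alike to Il6 and Socs3 by Pearson's r. One gene that this rule names is not reported here. Il11ra2 matched several gene IDs and was not counted. Limits for a count of 0 used 3 counts and cover counting error only.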

Additional observations from a re-analysis of the deposited data

How the results depend on the processing

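Of 613 log2 fold changes under alternative settings, 538 kept direction and side of the threshold, 29 passed it, 33 lost it and 13 changed sign, and the cause was not tested. Over the 10 members, without the preparation block 0 rose and 0 fell in PSCs, and leaving out a preparation gave 1 to 4 and 0 to 2. In livers DESeq2 called 1 member in each WT comparison, and leaving out a library gave 0 to 1 (WT higher than TRPV4-KO, WT lower, and TRPV4-KO higher than GSK219). Genes past 2-fold in WT over TRPV4-KO were 23 higher and 17 lower, with 370 and 119 by DESeq2, 100 and 40 without filter, 11 and 9 in only the groups compared, 351 and 78 with the replicate block, 252 and 73 with a sex term, and 2 to 573 and 1 to 149 without one library, 573 and 149 without TRPV4-KO replicate 3. For WT over GSK219 they were 0 and 0, with 64 and 10 by DESeq2, 7 and 1 without filter, 2 higher in only the groups compared, 9 higher with the block, 2 and 2 with a sex term, and 0 to 2 higher without one library. For TRPV4-KO over GSK219 they were 8 and 7, with 45 and 48 by DESeq2, 18 and 20 without filter, 4 lower in only the groups compared, 17 and 17 with a sex term, and 4 to 38 and 4 to 41 without one library. In PSCs they were 252 and 200, with 111 and 119 without the block, 165 higher with a pseudocount of 10, 1314 and 1446 at any fold change, and 73 to 232 and 83 to 195 without one preparation. Same-numbered WT livers correlated with those of the other groups at -0.45 and -0.52 (replicate 1) and 0.59 and 0.30 (replicate 2). The 2 WT livers deviate from their mean in mirror image, so these values cannot show whether WT is paired by number. With the replicate block over WT comparisons Socs3 had an adjusted p of 0.077 and 0.19 and Saa2, over TRPV4-KO, 0.055, Icam1 0.048, and Ctf1 turned to 0.09. Between TRPV4-KO and GSK219 the block changed no member's call and gave 9 and 10 genes past 2-fold. Saa2 was at 0.086 without filter and Hpx at 0.12 in only the groups compared. Signs also turned for some values without one library, giving ranges in PSCs of -0.31 to 0.12 for Il6 (positive without preparation 1) and -0.13 to 0.13 for Lif (negative without preparation 3). In TRPV4-KO over GSK219 the ranges were -0.63 to 0.23 for Clcf1 (positive without GSK219 replicate 2), -0.06 to 0.15 for Il6st (negative without GSK219 replicate 1), -0.44 to 0.15 for Socs3 and -0.13 to 0.08 for Stat3 (0.15 and 0.04 without TRPV4-KO replicate 2, 0.14 and 0.08 without GSK219 replicate 2). In WT over TRPV4-KO they were -0.09 to 0.11 for Ctf1 (0.06 without WT replicate 1, 0.11 without TRPV4-KO replicate 3), -0.43 to 0.03 for Il11ra1 (positive without TRPV4-KO replicate 3) and -0.59 to 0.09 for Il27ra (positive without WT replicate 2). Depth limited Il6, Il11 and Lif in livers, where 15 reads was the highest count.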

Other observations

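The 5 genes whose log2 values followed those of Il6 most closely over the 6 PSC libraries were Hmox2, Exoc3l4 and Mllt3 (each with a Pearson's r of 0.994), B230118H07Rik (0.992) and Serpinb9 (0.990). The libraries of one preparation share their cells, so these points are not independent. Over the 8 livers, the genes most like Socs3 were Itih3 and Cd300lf (0.988 each), Casp1 (0.987), Was (0.986) and March1 (0.984), and the 3 groups share that pattern in part by their means. Itih3 encodes an acute-phase plasma protein, and Cd300lf, Casp1 and Was are genes of leukocytes.

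In PSCs, 12 of the 25 hepatic acute-phase genes were listed and tested, with a median of -0.08. With Yoda1 2 of them rose and 2 fell by limma, where 8.68% of all genes rose and 9.55% fell. Without the block 0 rose and 0 fell. Cp, which encodes the copper carrier ceruloplasmin, rose by 1.00 ± 0.09 on the log2 scale (limma, adjusted p = 0.0024), from 878, 1111 and 1843 normalized reads to 2046, 2224 and 3188, and was past the 2-fold threshold. The adjusted p stayed under the threshold when any preparation was left out, the value ranged from 0.90 to 1.11 and was under 2-fold without preparation 1, and the adjusted p was 0.11 without the block. Lcn2 rose by 0.72 (0.040), whereas Saa3 fell by 0.55 (0.037) and Steap4 by 0.83 (0.0073), and none of these 3 was called without the block. Lcn2 lost its call without any preparation (adjusted p 0.073 to 0.12), and Saa3 and Steap4 without preparation 2 (0.21 and 0.057). They were named after their values were seen.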
